A study of Mus musculus with 2 samples.

Results

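The proteasome genes were taken as the probe sets that carry exactly 1 platform gene symbol beginning with Psma, Psmb, Psmc, Psmd, Psme, Psmf or Psmg followed by a digit. The rule found 48 genes on 85 probe sets, of 12393 genes and 22690 probe sets in all. By symbol these were 15 core genes (Psma and Psmb without the immunoproteasome), 21 regulatory genes (Psmc and Psmd), 4 activator genes (Psme), 3 immunoproteasome genes (Psmb8, Psmb9 and Psmb10), 4 assembly chaperones (Psmg) and 1 inhibitor (Psmf1). The symbol rule also took in Psmc3ip, a meiotic recombination factor, and Psme3ip1, named as a partner of Psme3, neither of which is a subunit. Another 1 probe set of these families carries several symbols and was left out.

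The proteasome is a barrel-shaped protease that degrades proteins tagged with ubiquitin. Its core is a stack of rings of alpha subunits, which form the gates, and beta subunits, of which some carry the protease sites. A regulatory particle of ATPases (Psmc) and other subunits (Psmd) binds ubiquitin chains, removes them, and unfolds and feeds in the substrate, while ring-shaped activators (Psme) open the gate without ubiquitin. In lymphocytes, and in other cells exposed to interferon gamma, Psmb8, Psmb9 and Psmb10 replace the catalytic subunits of newly built cores and give the immunoproteasome, which shapes the peptides shown on MHC class I.

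The samples were CD4+ T cells of spleen, separated with magnetic beads, from DBA/1 mice and from C57BL/6 mice. Both strains had been immunised with glucose-6-phosphate isomerase (GPI), the antigen of this arthritis model, and were sampled on day 7. DBA/1 is the strain that develops the arthritis and C57BL/6 the one that resists it, and the series asked which molecules the T cells of the susceptible strain express highly. Each strain is 1 array, and no source used here gives the age of the animals or how many mice stand behind it. There is therefore no replicate error, no test and no p-value, and every comparison below describes these 2 arrays. Fewer cells of a type and less RNA per cell cannot be told apart in such bulk samples. Whether the probes match the DBA/1 sequence was not tested, so a poorer match and less RNA cannot be told apart either.

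The deposited values are MAS5 signals, the brightness of a probe set on a linear scale. The arrays had medians of 37.6 (DBA/1) and 38.04 (C57BL/6), which served as the floor to which lower signals were raised. The median log2 ratio of DBA/1 over C57BL/6 was 0.10 over the 6936 genes above the floor on at least 1 array, and 0.087 over 18 bacterial spike-in probe sets. Median centring, spike-in scaling, quantile normalization and lowess brought the median of all genes to 0.014 to 0.024, so each direction below was read on the deposited scale and on these 4 others. The error of a probe set, estimated from 2325 pairs of probe sets of the same gene, was 0.31 on the log2 scale (SD), and the difference between 2 such probe sets had an SD of 0.43. It holds no variation between mice.

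CD4 T cell markers were present on both arrays, with Cd4 at 913 in DBA/1 and 857 in C57BL/6. Of the 8 measured markers of that list (summed signal 12304.5 against 13257), 2 were higher and 6 lower in DBA/1. Their median log2 ratio was -0.057 as deposited and between -0.22 and -0.14 on the other scales, with Thy1 at -0.54 and Cd28 at -0.30 as deposited. Markers of other cells differed more. For comparison, 60.6% of all genes above the floor were higher in DBA/1 as deposited. The summed signal of 11 neutrophil genes was 34144 in DBA/1 and 10606 in C57BL/6, and all 10 members above the floor were higher in DBA/1, with Cxcr2 below the floor on both arrays. Monocyte and macrophage genes were higher in DBA/1 in 12 of 12 cases (summed signal 6589 against 2937), B cell genes in 7 of 8 (1646 against 840.3, Pax5 below the floor), dendritic cell genes in 5 of 5 (4695 against 1801, Xcr1 below the floor) and plasma cell genes in 4 of 4 (1884 against 1299.8, Sdc1 below the floor). CD8 T cell genes were lower in DBA/1 in 6 of 6 cases (383 against 1050.1) and NK cell genes in 4 of 4 (446 against 1109, with Ncr1, Klra8 and Gzma below the floor). Of the erythroid list, 3 of 4 were lower in DBA/1 (556 against 545, with Hba-a1 and Epor below the floor). The erythroid gene that was higher was Car1, at 200 and 106 (0.91). Cell cycle genes were higher in DBA/1 in 12 of 14 cases, with a median of 0.63. The part of these differences in the proteasome values was not tested.

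Proteasome genes were slightly higher in DBA/1 as a group, and by little in any 1 gene. Of 48 members, 47 were above the floor on at least 1 array, and 42 had a higher signal at or over the 75th percentile of its array. The exception below the floor was Psma8, the testis form of an alpha subunit, at 7.65 in DBA/1 and 2.41 in C57BL/6. Of the 47, 41 had a log2 ratio above 0, against 60.6% of all genes above the floor. Their median was 0.30, where the median of all genes was 0.10. The members spanned -0.47 to 0.64. The lowest was the catalytic subunit Psmb6 and the highest the structural beta subunit Psmb3.

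**Figure D1:**
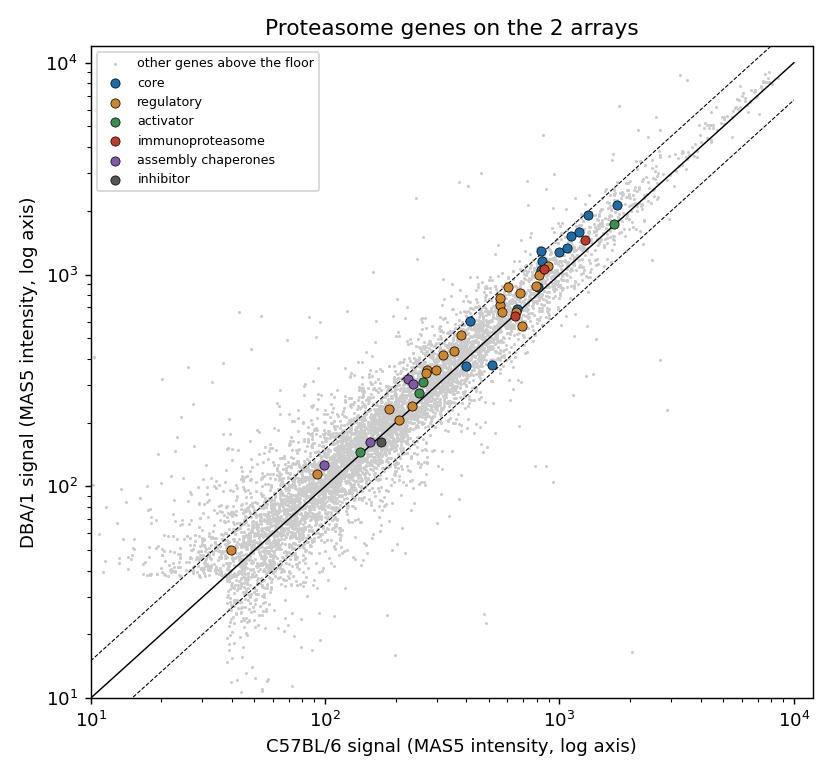
Signal of each gene in C57BL/6 (x axis) and DBA/1 (y axis), MAS5 intensity on log axes; grey points are other genes above the floor, coloured points the 47 proteasome genes by group, the solid line equality and the dashed lines 1.5-fold. Genes under 10 on either array lie outside the axes. Most proteasome genes sit between equality and the upper dashed line.

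No member reached 2-fold in either direction in the probe set used, where 5.74% of all genes did. Psmb3 alone reached 1.5-fold higher in DBA/1, which is 1 of 47 members against 11.8% of all genes, and no member was 1.5-fold higher in C57BL/6, against 5.97% of all genes. Among genes at or over the 75th percentile, 1 of 42 members was at least 1.5-fold apart, and 17.3% of the 3920 genes were. In this bright class 36 of 42 members had a ratio above 0, against a background of 63.5%. The middle of the members was narrow. Their interquartile range was 0.29 on the log2 scale, beside 0.51 for all genes above the floor and 0.47 for genes at or over the 90th percentile. As deposited, 22 of 47 members lay above the probe set error of 0.31 and 1 (Psmb6) below its negative, while 29.4% and 14.9% of all genes did. That count fell with the offset removed. It was 11 above after median centring (22.2% of all genes) and also 11 on the spike-in scale. It was 9 after quantile normalization and after lowess (22.7% and 23.0%), a share of the 47 members below that of all genes. On all 4 scales the share of members above the error was thus near or below that of all genes. On these 4 scales Psmc4 joined Psmb6 below.

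The direction of the group held on the other scales with smaller values. The median of the 47 members was 0.21 after median centring and after spike-in scaling, and 0.16 after quantile normalization and after lowess. After quantile normalization 34 of the 47 remained above 0, against 52.2% of all genes. On all 5 scales together, 34 of the 47 members were higher in DBA/1, 6 were lower (Psmb6, Psmc4, Psmb2, Psmf1, Psmb10 and Psmd3) and 7 changed sign (Psma5, Psma7, Psmd4, Psmd7, Psme1, Psme3 and Psmg4). At or over the 75th percentile, 31 of 42 members were higher on all 5 scales, and 50.9% of all such genes were.

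**Figure D2:**
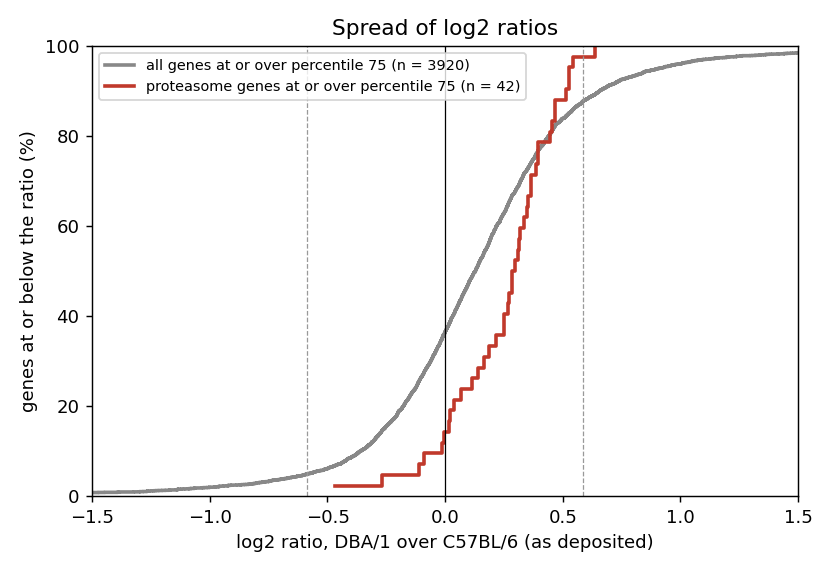
Share of genes (y axis, percent) at or below each log2 ratio of DBA/1 over C57BL/6 (x axis), as deposited, for genes whose higher signal reached the 75th percentile; dashed lines mark 1.5-fold. The curve of the 42 proteasome genes is steeper than that of 3920 genes and lies to its right over most of its range.

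The 7 measured alpha subunits above the floor form the outer rings and gates of the core. All had ratios above 0 as deposited, against 60.6% of all genes above the floor, with a median of 0.34. Psma4 read 1165 in DBA/1 and 842 in C57BL/6 (log2 ratio 0.47). Psma2 read 1524 and 1120 (0.44). Psma6 read 1594 and 1211 (0.40), Psma1 1050.4 and 832 (0.34), and Psma3 2124 and 1763 (0.27). These 5 genes stayed above 0 on all 5 scales. Psma5 and Psma7, at log2 ratios of 0.11 and 0.069, did not. Their second probe sets gave 0.37 in both cases, so the size of the difference depended on the probe set. For Psma6 the probe set used is of a type marked for possible cross-hybridisation. An unmarked bright one gave 0.22, and a dim marked one, at 47.3 and 77.6, gave -0.71.

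The beta subunits of the constitutive core spread more widely than the alpha subunits, with an SD of 0.40 over 7 genes beside 0.16 over 7. Psmb3, a structural subunit of the inner ring, read 1296 in DBA/1 and 833 in C57BL/6, which is 1.56-fold as deposited, and its second probe set read 1031 and 732 (log2 ratio 0.49). Both probe sets were higher in DBA/1, but on the 4 other scales the first came to under 1.5-fold, with 0.49 after quantile normalization. Psmb4, a structural subunit of the same ring, read 1916 and 1329 (0.53). Its other probe set, of a type marked for possible cross-hybridisation, read 763 and 283 (1.43), the largest ratio among member probe sets over the floor in both strains. Psmb1, also structural, read 1282 and 995 (0.37). Psmb2 went the other way, with 369 in DBA/1 and 398 in C57BL/6 (-0.11).

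The catalytic subunits did not move as a block. Psmb5, the chymotrypsin-like subunit, read 605 in DBA/1 and 415 in C57BL/6 (log2 ratio 0.54). Psmb7, the trypsin-like subunit, read 1342 and 1080.4 (0.31). Psmb6, the caspase-like subunit, read 373 and 515 (-0.47) and was, as deposited, the only member lower in DBA/1 by more than the probe set error. Each has 1 probe set under its symbol, so none had a second measurement. Psmb6 stayed below 0 and Psmb5 and Psmb7 above 0 on all 5 scales.

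The immunoproteasome subunits, each of which takes the place of 1 catalytic subunit, had a median log2 ratio of 0.18 as deposited, where all genes had 0.10 and the constitutive core 0.35. The median was 0.099 after median centring and 0.097 after spike-in scaling. It was 0.028 after quantile normalization and 0.024 after lowess, where all genes had 0.020 and 0.024, so on those scales the group did not stand above all genes. Psmb9, which replaces Psmb6, read 1066 in DBA/1 and 859 in C57BL/6 (0.31). Psmb8, which replaces Psmb5, read 1462 and 1287 (0.18). Psmb10, which replaces Psmb7, read 641 and 647 (-0.014). Psmb9 and Psmb8 stayed above 0 and Psmb10 below 0 on all 5 scales, although Psmb8 was 0.028 after quantile normalization.

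The log2 ratio of the inducible subunit minus that of its constitutive counterpart had no common sign. It was 0.78 for Psmb9 against Psmb6, larger than the SD of 0.43 between 2 probe sets of 1 gene. It was -0.36 for Psmb8 against Psmb5 and -0.33 for Psmb10 against Psmb7, both within that SD. The SD of 0.43 holds no difference between genes, and log2 ratios over all genes above the floor had an SD of 0.52. How often 2 unrelated genes lie as far apart as Psmb9 and Psmb6 was not tested. On the other scales the differences were 0.75 to 0.78, -0.39 to -0.36 and -0.33 to -0.31 in the same order. These are differences between ratios, and no signal of 1 gene was set against that of another.

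**Figure D3:**
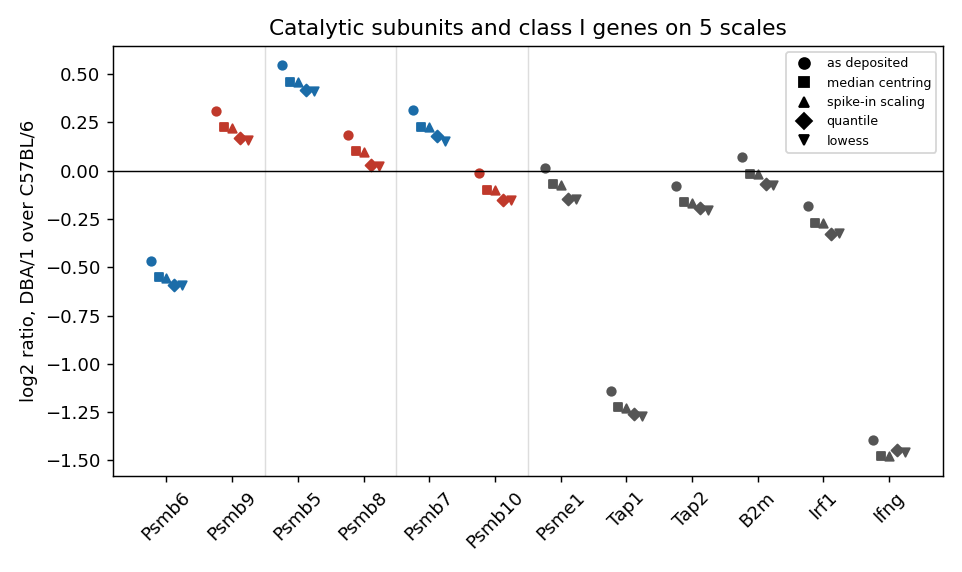
log2 ratio of DBA/1 over C57BL/6 (y axis) of constitutive catalytic subunits (blue), their immunoproteasome replacements (red) and class I and interferon genes (grey), each on 5 scales shown by symbol. Psmb6 lies below 0 and Psmb9 above it on every scale, and Tap1 and Ifng lie below -1 on every scale.

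Psmb9 and Psmb8 lie in the MHC class II region, next to the peptide transporter genes. RefSeq gives the order Psmb9, Tap1, Psmb8, Tap2 on chromosome 17. The log2 ratios along it were 0.31, -1.14, 0.18 and -0.078. Tap1, which carries proteasome products into the endoplasmic reticulum with Tap2, had signals of 311 (DBA/1) and 687 (C57BL/6), 2.20-fold apart, while both its neighbours were slightly higher in DBA/1. Psmb9 and Tap1 are read in opposite directions from 1 intergenic stretch. Their RefSeq starts are 226 bases apart, and their windows of 250 bases before to 50 bases after the start share 275 bases. The window of Psmb9 is shown because both genes, whose ratios differed in sign, start within it (chr17:34187281-34187580, GRCm38.p6, minus strand, 5′ to 3′, capitals marking a GC box, GGGCGG, and a CCAAT box, here ATTGG).
Psmb9: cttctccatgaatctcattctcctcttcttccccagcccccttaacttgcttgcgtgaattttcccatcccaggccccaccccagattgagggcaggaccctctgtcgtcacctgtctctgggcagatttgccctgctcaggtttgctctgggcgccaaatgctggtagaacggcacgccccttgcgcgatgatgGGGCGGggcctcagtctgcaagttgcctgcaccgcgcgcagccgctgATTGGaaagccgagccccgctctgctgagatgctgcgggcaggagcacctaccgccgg

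The sequence is that of the C57BL/6J reference, and the DBA/1 sequence was not used here. Psmb9 and Psmb8 each have 1 probe set under their symbols. Tap1 has 4, of which 3 were below the floor on both arrays, at most 10.5 in DBA/1 and 19.7 in C57BL/6. No second measurement above the floor could therefore be set beside these ratios.

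Genes that respond to or signal for interferon were lower in DBA/1 in 16 of 19 cases, with a median of -0.39. Of all genes above the floor, 60.6% were higher. At least 1.5-fold lower were 8 of the 19, against 5.97% of all genes. None was 1.5-fold higher, against 11.8% of all genes. Ifng, the gene of interferon gamma, read 66.01 in DBA/1 and 173 in C57BL/6 (log2 ratio -1.39). Irf1, a transcription factor that interferon gamma induces, read 659 and 749 (-0.18). The 3 immunoproteasome genes and the activator subunit Psme1, all known as interferon gamma targets, lay between -0.014 and 0.31 in the same samples as deposited. On the other scales Psmb10 and Psme1 lay below 0, both at -0.15 after quantile normalization. There Psmb8 was at 0.028 and Psmb9 at 0.17. Of 12 usable genes of class I peptide processing, 7 were higher and 5 lower in DBA/1, with a median of 0.066 that turned to between -0.047 and -0.019 on the other scales. B2m, the light chain of class I, read 6040.4 and 5760.4 (0.068), but it fell below 0 on the other scales and its second probe set was at -0.24, and Tap2 read 413 and 436 (-0.078).

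The regulatory particle had 21 members by symbol, with a median of 0.30. As deposited 19 were above 0, against 60.6% of all genes, and 17 on the other scales, against 52.2% of all genes after quantile normalization. Without Psmc3ip, at 50.2 in DBA/1 and 39.7 in C57BL/6 (0.34, near the floor), the group holds 6 ATPases, 11 other subunits and 3 chaperones of the base. Of the ATPases, which form the ring that unfolds substrates, 5 were higher in DBA/1 on all 5 scales, against 49.7% of all genes. Psmc5 read 520 in DBA/1 and 380 in C57BL/6 (log2 ratio 0.45), Psmc1 417 and 317 (0.39), and Psmc3 715 and 560 (0.35). Psmc6 was at 0.22 and Psmc2 at 0.17. Psmc4 read 571 and 689 (-0.27), and its second probe set read 386 and 344 (0.17), so the direction of Psmc4 differed between probe sets. The second probe set of Psmc6, marked for possible cross-hybridisation, was also opposite, at 113 and 126 (-0.15). For Psmc2 the probe set used is a marked one, and the unmarked one was not opposite (0.28).

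The 11 other subunits had a median of 0.28. As deposited 10 were above 0 (60.6% of all genes were), and 8 on each other scale (52.2% of all genes after quantile normalization). Psmd8, a subunit of the lid, read 870 in DBA/1 and 604 in C57BL/6 (log2 ratio 0.53). Psmd6, also of the lid, read 771 and 558 (0.47). Its second probe set read 28.9 in DBA/1, under the floor, and 408 in C57BL/6, at least 10.9-fold higher in C57BL/6. The 2 probe sets of Psmd6 thus gave opposite directions, and the cause was not tested. Psmd13 read 342 and 269 (0.35), with a second probe set, marked for possible cross-hybridisation, at 0.31.

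Psmd14, the deubiquitinase that cuts ubiquitin chains off the substrate, read 1099 in DBA/1 and 893 in C57BL/6 (0.30). Psmd12 and Psmd11 of the lid were both at 0.28, but Psmd11 has 4 probe sets with signals over the floor in both strains, at 0.28, 0.20, -0.11 and -0.57. The first of these, the one used, is marked for possible cross-hybridisation and the others are not. Psmd2, the scaffold that binds ubiquitin shuttles, read 818 and 677 (0.27), and Psmd1, the other large scaffold of the base, 353 and 297 (0.25). Psmd4, a ubiquitin receptor, read 669 and 651 (0.040), with a second bright probe set at 0.023 and a dim one under the floor in DBA/1. Psmd7 (0.019) and Psmd3 (-0.0061) were the others near 0.

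Of the chaperones that help build the proteasome but are not part of the finished particle, all but Psmg4 were higher in DBA/1 on all 5 scales. Being higher on all 5 scales held for 49.7% of all genes above the floor. Among the 3 chaperones of the base, Psmd5 read 354 in DBA/1 and 271 in C57BL/6 (log2 ratio 0.39), Psmd10, also known as gankyrin, 233 and 187 (0.32), and Psmd9 114 and 92.8 (0.30), the last under the 75th percentile. The 4 Psmg genes, which guide the assembly of the alpha ring, had a median of 0.36 as deposited and 0.27 to 0.28 on the other scales. Psmg1 read 322 and 225 (0.51), and its partner Psmg2 read 305 and 237 (0.36) with a second probe set at 0.51. Of the other pair, Psmg3 read 127 and 99.0 (0.35) and Psmg4 162 and 155 (0.062). Pomp, the chaperone that the core consumes as it matures, was at 0.47 with 1136 and 818. Psmf1, named as an inhibitor of the core, was at -0.092, with 163 and 173. Its 2 dimmer probe sets above the floor lay at -0.077 (marked for possible cross-hybridisation) and -0.14.

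**Figure D4:**
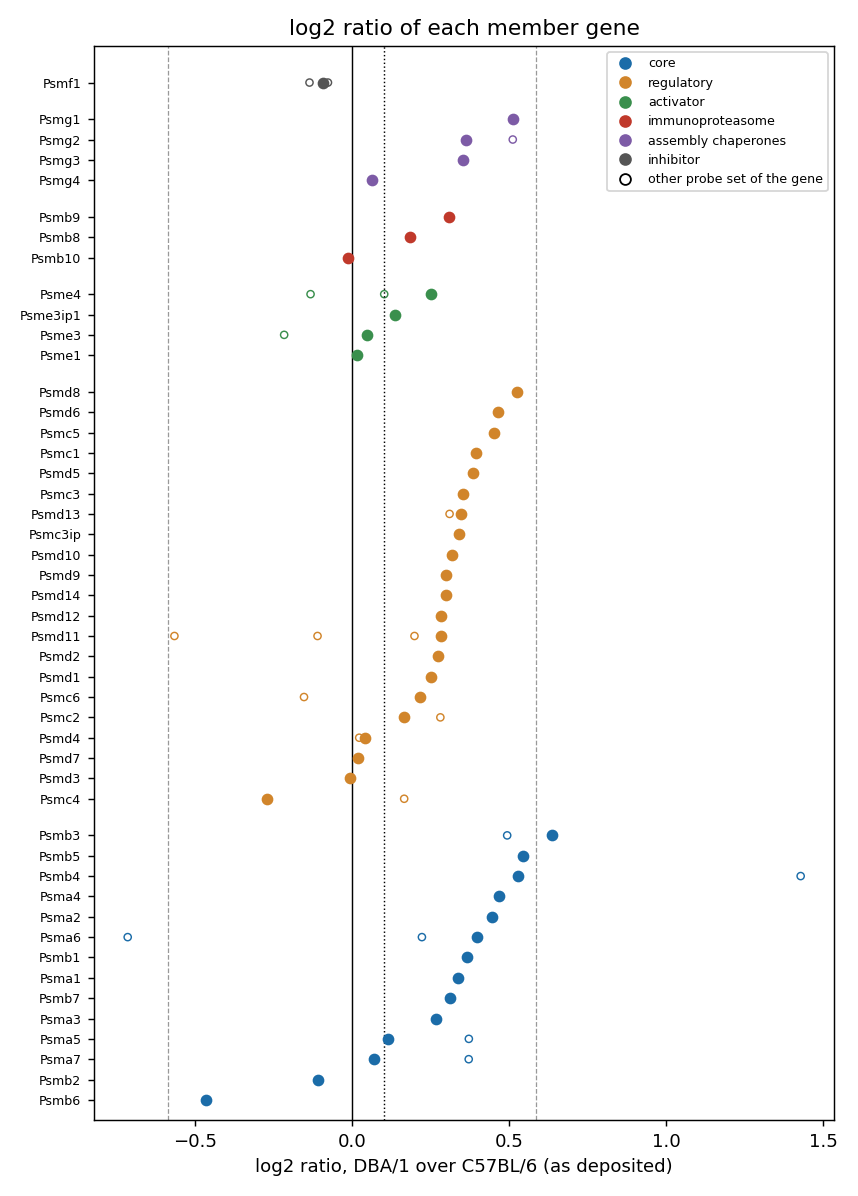
log2 ratio of DBA/1 over C57BL/6 (x axis) of each proteasome gene above the floor, as deposited; filled points are the probe set used, open points other probe sets over the floor in both strains, the solid line 0, the dotted line the median of all genes (0.10) and dashed lines 1.5-fold. Filled points lie between -0.47 and 0.64, and open points of Psmb4, Psma6 and Psmd11 stand farthest from their filled points.

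The activators had the lowest median of the groups with several genes. All 4 genes with a Psme symbol were above 0 as deposited (60.6% of all genes were), but 2 of 4 were on each other scale. Their median of 0.093 lay near that of all genes (0.10). Psme1, a subunit of the interferon-inducible activator ring, read 1730.3 in DBA/1 and 1712 in C57BL/6 (log2 ratio 0.015). Psme3, the nuclear homologue, read 146 and 141 (0.047), with a second probe set at -0.22. Psme4, a large activator linked to histone breakdown, read 312 and 262 (0.25). Its other probe sets lay at 0.10 and -0.13, the latter marked for possible cross-hybridisation. Psme3ip1 was at 0.14. No activator differed by more than the probe set error.

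Repeat measurements within genes set the limit of these values. Of the 85 member probe sets, 67 reached the floor in both strains, 2 on 1 array and 16 on neither, and 53 of the 67 had ratios above 0. Of 15 members with a second probe set over the floor in both strains, it had the same sign as the first in 11, and over all genes the share was 68.0%. The exceptions among these pairs were Psmc4, Psmc6, Psme3 and Psme4. The SD of the difference between the pair was 0.34 over these members, against 0.43 over all genes. The Psmd6 pair, with 1 side under the floor, is not among them. Only the 2 brightest probe sets of a gene were paired. Dimmer ones of Psma6 (-0.71) and Psmd11 (-0.11 and -0.57), opposite in sign to the probe set used, are therefore not counted either.

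**Figure D5:**
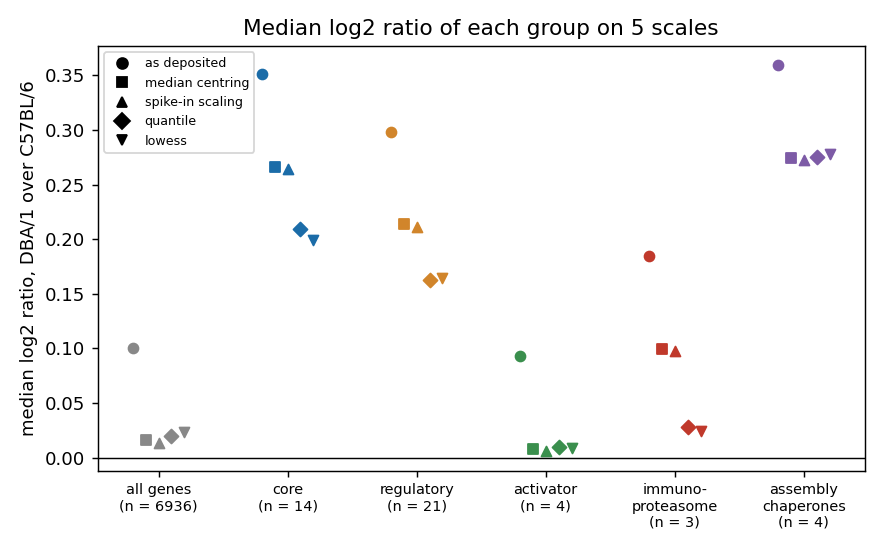
Median log2 ratio of DBA/1 over C57BL/6 (y axis) of all genes above the floor and of each proteasome group (x axis, n genes), on 5 scales shown by symbol. Core, regulatory and assembly chaperone medians lie above that of all genes on each scale. The activator median, with Psme3ip1 counted, is 0.093 as deposited and 0.0056 to 0.0098 on the other scales.

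Among genes that work with the proteasome but carry other names, 7 of 11 measured partners were higher and 4 lower in DBA/1, a share near the 60.6% of all genes. Their median was 0.19, and 1 was at least 1.5-fold apart. That was Zfand5, a zinc finger protein that binds the proteasome, at 913 and 593 (log2 ratio 0.62), in a probe set marked for possible cross-hybridisation, while its 2 unmarked probe sets were at 0.15 and 0.23. Sem1, a small subunit of the lid, read 1280.4 and 921 (0.47), with a second probe set at 0.57. Shuttle factors and partners of the p97 unfoldase had a median of -0.097 over 9 genes, 4 higher and 5 lower. Vcp, p97 itself, read 1161 and 1016 (0.19), with a dimmer probe set at -0.18, Nsfl1c 502 and 580 (-0.21) and the ubiquilin Ubqln1 497 and 539 (-0.12). The Ubqln1 probe set used is marked for possible cross-hybridisation, and an unmarked one was at -0.28. Ubqln4, another ubiquilin, read 63.4 and 108 and was 1.70-fold higher in C57BL/6. Its second probe set, under the floor in DBA/1, was at least 1.29-fold higher in C57BL/6.

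Of 6 known regulators of proteasome gene expression above the floor, 1 was higher and 5 lower in DBA/1, with a median of -0.12. Of all genes above the floor, 60.6% were higher. Mafk was the lowest of the 6, at 85.4 in DBA/1 and 114 in C57BL/6 (log2 ratio -0.42). Nfe2l1, the transcription factor that raises subunit genes when proteasome activity falls, was named after its value was seen and read 99.0 in DBA/1 and 109 in C57BL/6 (log2 ratio -0.13). Ngly1, which helps activate it, read 434 and 441 (-0.020), its relative Nfe2l2 259 and 309 (-0.25), and the Nfe2l2 inhibitor Keap1 155 and 167 (-0.10). The second probe set of Keap1 went the other way, at 65.1 and 55.7 (0.22). Mafg, a DNA-binding partner of both factors, read 68.6 in DBA/1 and did not reach the floor in C57BL/6, which makes it at least 1.80-fold higher in DBA/1. Its second probe set, also under the floor in C57BL/6, was at least 1.18-fold higher in DBA/1. None of the 6 listed ubiquitin and ubiquitin-activating genes had a probe set under 1 symbol.

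RefSeq promoter windows (GRCm38.p6, 300 bases) were found for 40 of the 48 members, 43 windows in all, and 6 short motifs were searched on both strands. The motifs were chosen with these results known and after other spellings had been tried, and a match is a description of letters only. The ETS core CCGGAA was in 53.5% of member windows, 14.9% of all windows and 31.9% of the windows of genes at or over the 75th percentile. The GC box GGGCGG was in 53.5%, 35.7% and 65.2%, and the CCAAT box in 34.9%, 37.4% and 37.0% in the same order. The antioxidant response element TGANTCAGC, a site of the Nfe2l1 family, was in 2.33%, 1.19% and 0.93% in the same order. Among members it was in the 1 window of Psmb5 only. There the match lies downstream of the start, at position 42, in the last bases of the window, and not upstream. The core of the interferon-stimulated response element was in 5 member windows (11.6%, against 3.44% of all), and the GAS spelling TTCNNNGAA was in 6.98%, against 8.30% of all.

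Members with and without the ETS core had similar medians. The median log2 ratio was 0.30 over 22 genes with CCGGAA and 0.28 over 18 without it. The 5 genes with the interferon-stimulated response element core had a lower median, 0.062, than the 35 without it, 0.30, although Psmb3, with the highest ratio of all members, is among the 5. The windows of 4 members are shown because Psmb3 had the highest and Psmb6 the lowest ratio, Psmb5 the largest among catalytic subunits, and Psmc5 the largest among ATPases. Psmb3 lies at chr11:97703184-97703483 on the plus strand, Psmb5 at chr14:54617946-54618245 on the minus strand, Psmb6 at chr11:70525107-70525406 on the plus strand and Psmc5 at chr11:106255935-106256234 on the plus strand, all shown 5′ to 3′. Capitals mark TTTCACTTTC (the interferon-stimulated response element core, on the other strand) and 2 CCAAT boxes in Psmb3, TGAATCAGC in Psmb5, the GC box CCGCCC in Psmb6, and CCGCCC and CCGGAA in Psmc5.
Psmb3: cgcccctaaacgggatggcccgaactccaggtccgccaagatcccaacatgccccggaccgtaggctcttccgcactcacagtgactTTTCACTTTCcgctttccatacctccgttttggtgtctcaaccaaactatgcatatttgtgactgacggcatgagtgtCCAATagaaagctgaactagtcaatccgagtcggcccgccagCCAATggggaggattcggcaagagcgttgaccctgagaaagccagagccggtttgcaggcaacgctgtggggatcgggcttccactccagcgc
Psmb5: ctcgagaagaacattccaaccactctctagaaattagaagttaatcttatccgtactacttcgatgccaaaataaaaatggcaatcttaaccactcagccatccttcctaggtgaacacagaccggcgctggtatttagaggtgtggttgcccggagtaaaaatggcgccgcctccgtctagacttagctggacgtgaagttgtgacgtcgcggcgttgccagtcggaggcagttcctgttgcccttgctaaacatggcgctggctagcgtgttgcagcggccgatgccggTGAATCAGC
Psmb6: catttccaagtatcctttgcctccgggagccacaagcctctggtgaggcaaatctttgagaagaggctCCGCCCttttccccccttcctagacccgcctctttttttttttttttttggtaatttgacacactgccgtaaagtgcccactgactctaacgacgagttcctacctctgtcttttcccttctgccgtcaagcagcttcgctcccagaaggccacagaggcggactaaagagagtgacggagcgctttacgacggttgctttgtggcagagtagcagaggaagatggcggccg
Psmc5: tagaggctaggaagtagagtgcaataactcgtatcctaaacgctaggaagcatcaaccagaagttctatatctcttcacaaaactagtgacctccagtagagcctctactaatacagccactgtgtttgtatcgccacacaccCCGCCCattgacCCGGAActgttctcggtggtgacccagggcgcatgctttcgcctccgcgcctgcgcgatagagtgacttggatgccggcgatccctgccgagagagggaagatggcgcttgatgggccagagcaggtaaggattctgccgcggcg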

How the data were processed

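RNA of 2 samples, 1 per strain, was hybridised to 1 oligonucleotide array each. The deposited values are probe set signal intensities made by the authors with MAS5, per the submitters' processing notes; no source used here states the version or the scaling target. Labelling started from an oligo(dT) primer, per the labels' protocols, which starts cDNA at the 3′ end of transcripts. With 2 arrays, their number limits the precision.

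Of 22690 probe sets, 64 were controls, 20380 carried 1 gene symbol of the platform annotation, 691 several and 1555 none. The Entrez identifiers of all 48 members matched RefSeq genes of GRCm38.p6 with identical symbols. Where a gene had several probe sets, the one brightest on average (mean log2 signal) stood for it. Signals under the array's median were set to it, and a ratio with 1 side there is written "at least". The log2 ratio is DBA/1 over C57BL/6. Calls were made by fold only, at 1.5-fold and 2-fold. All members and the listed genes that were 1.5-fold apart, had the 3 highest mean signals of their list, or were chosen by name are reported; cell type lists are given by their defining markers. Members, lists and alternatives were chosen with earlier results of these data known. Alternatives were the 4 other scales, other floors (none, percentiles 25 and 60, log2(signal + 32)), other treatment of probe sets, minimum signals and members. The code, run with Python 3.11.15, numpy 2.4.6, pandas 2.3.3 and statsmodels 0.14.6 (lowess, span 0.3), was tested on simulated data.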

Additional observations from a re-analysis of the deposited data

How the results depend on the processing

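With 1 array per strain no replicate could be left out, and no test was lost or gained. A median was counted as moved when it changed by the probe set error divided by the square root of its number of genes, or more, which is 0.045 for all members, 0.082 for core, 0.067 for regulatory, 0.15 for activator and 0.18 for immunoproteasome genes, and a count when it changed over 1.5 times. By that measure 18 of 105 recomputed summary values moved and 87 did not, none with a change of sign. The allowance for the small groups is as wide as their medians, so it says nothing of their stability. Some of the 87 could not move, since other floors and leaving out Psmc3ip do not touch the 3 immunoproteasome genes. The number of members higher in DBA/1 was not counted as moved when it fell from 41 to 34 after quantile normalization and after lowess. The 87 are therefore no measure of stability. The median log2 ratio of all proteasome genes was 0.30 as deposited, 0.214 after median centring, 0.211 after spike-in scaling, 0.162 after quantile normalization and 0.155 after lowess. In the same order the core median, 0.35 as deposited, was 0.266, 0.264, 0.209 and 0.200, and the regulatory median, 0.30 as deposited, was 0.214, 0.211, 0.162 and 0.165. These scales remove an offset between the arrays by construction, and the median of all genes moved with them from 0.10 to at most 0.024. The number of genes at least 1.5-fold higher in DBA/1 went from 1 to 0 on all 4 scales and to 2 with every probe set on its own. The number higher in DBA/1 was 25 of 28 among members at or over percentile 90, against 67.5% of the 1545 genes of that class. The median log2 ratios as deposited were 0.30 for these members and 0.16 for all genes of the class. This count was taken as moved because fewer genes were counted, and the alternative was added after seeing the data. The activator median ranged from 0.0056 to 0.14 and the immunoproteasome median from 0.024 to 0.18. Without Psmc3ip and Psme3ip1 the activator median was 0.047 as deposited. Of 628 recomputed ratios of 63 named genes, 7 moved by more than the probe set error and 37, of 12 genes, had another sign than as deposited. With the mean over probe sets Psmd6 came to -1.49, Psmb4 to 0.98, Psmd11 to -0.049, Psma6 to -0.032 and Mafg to 0.54; Ifng came to -1.07 with log2(signal + 32), and Zfand5 to 0.15 without probe sets marked for cross-hybridisation.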
